A study of Mus musculus with 8 samples.

Results

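The genes described here are the zinc finger genes named Zfp followed by a number that gave a measured signal in mouse embryonic stem (ES) cells lacking the histone demethylases Jmjd1a, Jmjd1b or both. A gene was taken when its symbol had this form, the pluripotency marker Zfp42 left out, and when a probe set naming that gene alone spanned at least 0.01 on the log2 scale between the highest and the lowest of the 8 arrays. Of 328 such genes on the array, 118 met the rule (36.0%), against 7181 of all 18194 genes (39.5%). The other 210 had flat probe sets only, whose deposited values differ by less than 0.01 on the log2 scale between arrays, so nothing can be said of their change. The 118 were represented by the measured probe set with the highest mean. The genes were thus chosen by their span over the same 8 arrays, without regard to group, and the span itself is no result. The smallest span among the chosen probe sets was 0.0966 (Zfp687), and the largest among the flat Zfp genes was 0.0047 (Zfp959).

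Most Zfp genes encode proteins with C2H2 zinc fingers, loops held by a zinc ion that read DNA sequence, and many also carry a KRAB domain. A KRAB domain recruits the corepressor Trim28, and with it the histone H3 lysine 9 (H3K9) methyltransferase Setdb1 and the reader protein HP1, to the sites the fingers bind. In ES cells this machinery silences endogenous retroviruses and guards imprinted DNA methylation, and clusters of the KRAB zinc finger genes are themselves known to carry H3K9 methylation. The symbol is broader than this family: Zfp36, for example, binds RNA through fingers of another type. Jmjd1a and Jmjd1b, now named Kdm3a and Kdm3b, are related enzymes that remove methyl groups from H3K9.

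The 8 arrays held total RNA from 4 groups of 2 biological replicates each. WT cells carried both genes intact. Jmjd1a-KO cells were a Jmjd1a-deficient line (Jmjd1a delta/delta, Jmjd1b intact), and Jmjd1b-KO cells lacked Jmjd1b with Jmjd1a intact. The Jmjd1b-KO cells are labelled as coming from deficient mice, while the series text describes Jmjd1b-deficient lines made by Cre-carrying adenovirus from a conditional line. Double-KO cells were a Jmjd1a-deficient line in which a conditional Jmjd1b allele was deleted by OHT, which activates the Cre fusion MerCreMer. The treatment text naming 800 nM OHT is attached to all 8 samples, WT included, and all were grown with leukemia-inhibiting factor. The sources used here do not tell which line gave which replicate, so differences between groups include differences between lines. The text does not say whether feeder cells were present.

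A value below is the deposited log2 level of a gene's probe set, a change is the difference of 2 group means of such levels (first-named group minus second) with its standard error from limma, and n is 2 arrays per group throughout. A gene is called higher or lower when its p, adjusted by the Benjamini-Hochberg method over all 7181 measured genes, was under 0.05. The lower quartile of all probe sets lay at 6.34 to 6.35 on every array. Among the Zfp genes, 6 had at least 1 group mean below it. Zfp455 lay below it in every group, Zfp800 in all but double-KO, Zfp521 and Zfp386 in Jmjd1b-KO, and Zfp352 and Zfp709 in Jmjd1a-KO. The SD over the 118 genes of the difference between the 2 replicates was 0.28 in Jmjd1a-KO and 0.25 in double-KO, against 0.16 in WT and 0.10 in Jmjd1b-KO. All 12 ES cell markers were measured, and their mean level was 11.33 on both WT arrays, 11.62 and 11.77 in Jmjd1a-KO, 11.40 and 11.38 in Jmjd1b-KO, while the double-KO arrays stood apart at 10.85 and 11.72. The 9 measured of 13 fibroblast markers on the array averaged 8.76 and 8.92 in WT, 7.85 and 7.68 in Jmjd1a-KO, 6.74 and 6.58 in Jmjd1b-KO, while the double-KO arrays read 7.97 and 7.74, with 3 of the 9 below the lower quartile in Jmjd1b-KO. The 5 measured trophoblast markers averaged 7.56 and 7.76 in WT and 9.47 and 9.50 in double-KO. In bulk RNA, fewer cells of a type and less RNA per cell cannot be told apart.

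Promoters of the genes that moved furthest show the sequence context of the results. RefSeq's table (GRCm38.p6) held a window from 250 bases before to 50 after a gene's start for 97 of the 118, 122 windows in all. The windows below belong to the 3 largest rises and the 3 largest falls in double-KO against WT among genes with a single window. They are written 5′ to 3′ on the gene's strand, with every CG dinucleotide, the site of DNA methylation, in capitals. Zfp229 lies at chr17:21733474-21733773 on the plus strand, Zfp263 at chr16:3743849-3744148 on the plus strand and Zfp105 at chr9:122922828-122923127 on the plus strand. Among the genes that fell, Zfp518b lies at chr5:38684777-38685076 on the minus strand, Zfp961 at chr8:71950816-71951115 on the plus strand and Zfp280c at chrX:48594570-48594869 on the minus strand.
Zfp229: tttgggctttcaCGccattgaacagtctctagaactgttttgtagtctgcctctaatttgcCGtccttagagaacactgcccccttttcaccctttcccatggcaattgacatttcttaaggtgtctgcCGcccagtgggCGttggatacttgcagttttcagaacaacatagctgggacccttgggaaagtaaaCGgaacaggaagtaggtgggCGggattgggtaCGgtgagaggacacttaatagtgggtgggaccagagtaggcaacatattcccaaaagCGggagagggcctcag
Zfp263: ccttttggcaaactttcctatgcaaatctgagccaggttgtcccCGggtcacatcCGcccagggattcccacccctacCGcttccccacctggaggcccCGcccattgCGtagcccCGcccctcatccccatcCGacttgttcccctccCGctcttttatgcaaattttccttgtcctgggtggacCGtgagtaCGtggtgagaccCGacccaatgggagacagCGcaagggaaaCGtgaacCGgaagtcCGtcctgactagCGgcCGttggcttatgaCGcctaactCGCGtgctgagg
Zfp105: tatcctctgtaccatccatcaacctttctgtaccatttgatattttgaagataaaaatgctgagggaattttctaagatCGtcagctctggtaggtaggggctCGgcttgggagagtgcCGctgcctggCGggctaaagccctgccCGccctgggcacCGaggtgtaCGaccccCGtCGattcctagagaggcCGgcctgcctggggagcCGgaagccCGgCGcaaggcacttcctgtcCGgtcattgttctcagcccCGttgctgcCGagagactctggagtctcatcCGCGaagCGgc
Zfp518b: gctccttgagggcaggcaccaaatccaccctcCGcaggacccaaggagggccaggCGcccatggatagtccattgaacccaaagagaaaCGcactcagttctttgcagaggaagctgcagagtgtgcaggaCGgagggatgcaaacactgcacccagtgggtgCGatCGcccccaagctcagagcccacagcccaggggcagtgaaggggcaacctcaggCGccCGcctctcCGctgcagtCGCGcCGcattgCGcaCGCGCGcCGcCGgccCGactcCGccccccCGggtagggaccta
Zfp961: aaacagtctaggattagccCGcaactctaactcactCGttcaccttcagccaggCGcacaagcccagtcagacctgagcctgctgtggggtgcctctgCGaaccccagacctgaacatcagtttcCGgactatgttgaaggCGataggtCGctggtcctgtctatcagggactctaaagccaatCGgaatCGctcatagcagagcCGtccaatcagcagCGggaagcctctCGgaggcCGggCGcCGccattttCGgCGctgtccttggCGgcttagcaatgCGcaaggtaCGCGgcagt
Zfp280c: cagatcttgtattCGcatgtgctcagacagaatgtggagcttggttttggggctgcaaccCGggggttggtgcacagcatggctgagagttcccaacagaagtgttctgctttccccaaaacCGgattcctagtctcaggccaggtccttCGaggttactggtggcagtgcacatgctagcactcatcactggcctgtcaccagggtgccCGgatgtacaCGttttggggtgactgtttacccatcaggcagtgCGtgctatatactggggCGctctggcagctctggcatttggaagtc
The window of Zfp229 holds 8 CG and that of Zfp280c 8, against 20 for Zfp263, 19 for Zfp105 and 21 each for Zfp518b and Zfp961. Genes that rose and genes that fell thus include windows both below and above the median of the Zfp windows. The median was 16.5 CG over the 122 Zfp windows and 7 over all 32851 windows of the table. It was 17.5 in the 34 windows of genes higher in double-KO than in WT and 18 in the 24 windows of genes lower there. The letters GGGCGG, the core of a GC box, occurred on either strand in 59.0% of the Zfp windows and 35.7% of all windows. They were in 70.6% of the windows of the higher genes and 54.2% of those of the lower genes. CCAAT occurred in 45.1% of the Zfp windows and 37.4% of all. CACGTG was found in 8.20% against 7.15%, and TGACGTCA in 4.10% against 1.79%. None of these 4 motifs contains another, and the shares describe letters in the windows, not bound sites. All windows include those of genes without measured signal, and the windows of the 7181 measured genes were not counted apart. Being a Zfp gene and having a measured signal thus cannot be told apart in these contrasts.

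Cells without Jmjd1a alone had lower levels of a set of Zfp genes than WT cells. Of the 118 genes, 15 were lower and 4 higher. Among all measured genes 18.1% passed the threshold, 7.92% lower and 10.2% higher, against 12.7% lower and 3.39% higher among the Zfp genes. The median change was -0.08 over the Zfp genes and 0.01 over all measured genes. In the same comparison 7 of the 9 measured fibroblast markers were lower and none higher, and 2 of the 5 measured trophoblast markers were higher and none lower. Their part in the result was not tested.

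Zfp423, a partner of Ebf proteins in BMP signalling and fat-cell commitment, read 8.90 and 8.94 in WT and 7.64 and 8.16 in Jmjd1a-KO. The groups did not overlap, and it fell by 1.02 ± 0.16 (limma, adjusted p = 0.0144). Zfp775 read 7.42 and 7.51 in WT and 6.86 and 6.78 in Jmjd1a-KO. It fell by 0.64 ± 0.07 (limma, adjusted p = 0.00513), and of the 14 genes named for this comparison by size and separation it alone kept its call when each of the 8 arrays was left out in turn. Zfp961 fell by 0.96, Zfp532 by 0.88, Zfp740 by 0.76 and Zfp518b by 0.64. Zfp532 encodes a member of a complex with the chromatin reader Zmynd8, and Zfp518b a partner of the H3K9 methyltransferase G9a (Ehmt2). Zfp105 fell by 1.14 ± 0.29 (limma, adjusted p = 0.0457), a call kept in 3 of the 8 leave-one-out fits (adjusted p up to 0.201). Zfp809, which recruits Trim28 to retroviral DNA, fell by 0.45 ± 0.11 (limma, adjusted p = 0.0447), kept in 3 of the 8 (up to 0.188). Zfp934 read 8.20 and 7.95 in WT and 9.17 and 9.18 in Jmjd1a-KO and rose by 1.10 ± 0.23 (limma, adjusted p = 0.0291). The other 3 that rose were Zfp958 by 0.69, Zfp367 by 0.62 and Zfp106 by 0.39.

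The count moved with single arrays, and the share of all measured genes moved with it. When either WT array was left out, 1 Zfp gene passed (beside 2.91% of all measured genes without replicate 1 and 1.94% without replicate 2), and when either Jmjd1b-KO array was left out, 6 did (8.23%). Leaving out Jmjd1a-KO replicate 1 gave 8 genes (9.78%) and a median over the Zfp genes of -0.04. Leaving out its replicate 2 gave 42 (32.5%), 36 of them lower, and a median of -0.15. With only the arrays of the groups compared 3 passed (4.47% of all measured genes), and with flat genes included in the fit 2 of the 110 Zfp genes that could be compared (2.06% of all genes).

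Cells without Jmjd1b alone also had more Zfp genes below WT than above it. This comparison uses the same 2 WT arrays as that of Jmjd1a-KO, so the 2 results are not independent. From each gene's mean over the 8 arrays, the Zfp genes had a median deviation of 0.08 and 0.05 on the WT arrays. Over all measured genes it was -0.02 and -0.01. On both Jmjd1b-KO arrays it was -0.09 for the Zfp genes and 0.00 for all measured genes. Against WT, 20 Zfp genes were lower and 4 higher in Jmjd1b-KO. Among all measured genes 23.8% passed, 10.2% lower and 13.6% higher, against 16.9% lower and 3.39% higher of the Zfp genes. The median change was -0.16 over the Zfp genes and 0.02 over all measured genes. In this comparison 7 fibroblast markers of 9 were lower and 1 higher, 2 of the 5 measured neural progenitor markers were lower, and 4 of the 5 trophoblast markers were higher. Their part in the result was not tested.

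Zfp266 read 10.07 and 10.05 in WT and 9.04 and 8.92 in Jmjd1b-KO, with Jmjd1a-KO and double-KO between them. It fell by 1.08 ± 0.12 (limma, adjusted p = 0.00556), and its other measured probe sets changed by -0.26, -0.34 and -1.21. Zfp871 read 9.04 and 8.68 in WT and 7.90 and 7.77 in Jmjd1b-KO, below the other 6 arrays. It fell by 1.03 ± 0.17 (limma, adjusted p = 0.0131), and its other measured probe set changed by -0.46. Zfp91, a ubiquitin ligase, fell by 0.67 ± 0.09 (limma, adjusted p = 0.00857), and Zfp644, a partner of G9a, by 0.63 ± 0.11 (limma, adjusted p = 0.0184). Zfp521, a factor in neural commitment of ES cells, fell by 0.75 to levels of 6.02 and 5.96, below the lower quartile of the arrays. Zfp386, Zfp280c, Zfp329, Zfp608 and Zfp942 fell by 0.95, 0.83, 0.82, 0.80 and 0.75.

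In the other direction, Zfp428 read 9.83 and 9.93 in WT and 10.83 and 10.75 in Jmjd1b-KO, the highest of the 8 arrays, a rise of 0.91 ± 0.11 (limma, adjusted p = 0.00626). Zfp36, also called tristetraprolin and known to promote decay of AU-rich mRNAs, read 7.18 and 7.08 in WT and 7.72 and 7.69 in Jmjd1b-KO and rose by 0.57 ± 0.06 (limma, adjusted p = 0.0057). Zfp938 rose by 0.58. Zfp991 rose by 0.73, but its other measured probe set changed by -0.96, so no direction can be given for that gene in this comparison. None of the 14 genes named for this comparison kept its call in all 8 leave-one-out fits. Omitting WT replicate 1 left 1 Zfp gene (beside 1.31% of all measured genes), and omitting its replicate 2 left 7 (5.97%). Omitting Jmjd1b-KO replicate 1 left 1 (2.21%), and omitting its replicate 2 left 0 in limma (2.09%), with 26 at an unadjusted p under 0.05. Omitting either Jmjd1a-KO array gave 37 (33.9%). The fit of only these 2 groups called 56 (47 lower, 9 higher, beside 46.4% of all measured genes), array weights called 61 (48 lower, 13 higher, beside 49.9%), and the fit with flat genes called 2 (2.34%).

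**Figure D1:**
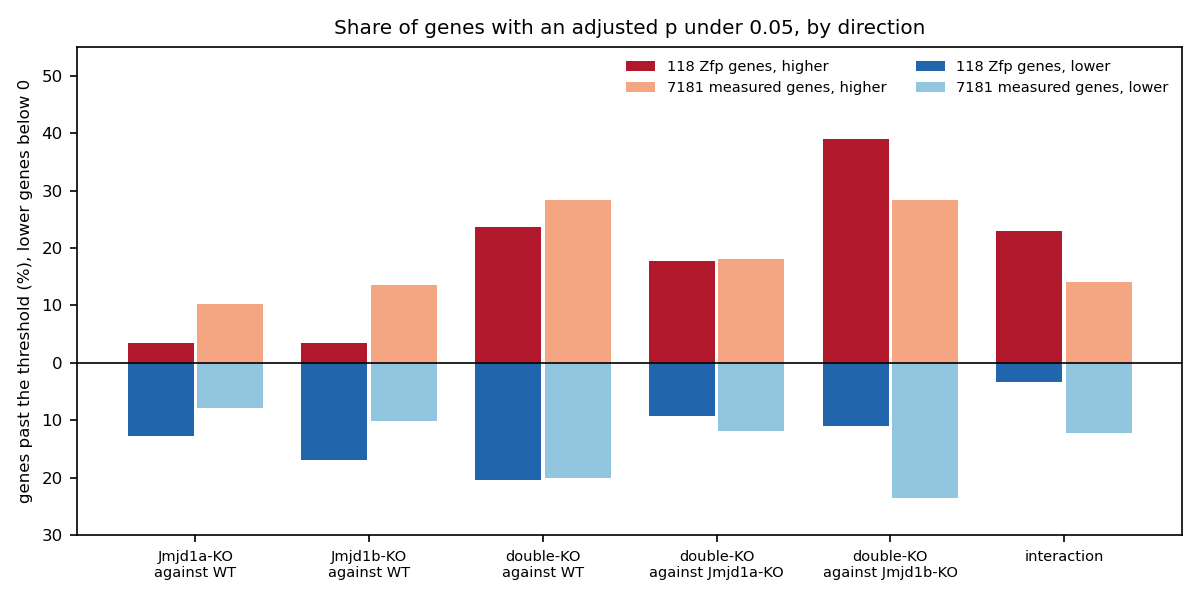
Percent of the 118 Zfp genes (dark bars) and of all 7181 measured genes (light bars) past the threshold of an adjusted p under 0.05, for each of the 5 comparisons of 2 groups and the interaction, with genes that were higher drawn above 0 and genes that were lower below it. The Zfp bars for lower genes exceed the light ones in both single knockouts against WT, and the Zfp bars for higher genes exceed them in double-KO against Jmjd1b-KO (39.0% against 28.3%) and in the interaction (22.9% against 14.1%). The comparisons share arrays, and the same WT arrays enter both single-knockout comparisons and the interaction, so the bars are not independent.

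Loss of both demethylases moved Zfp genes in both directions. Against WT, 28 were higher and 24 lower in double-KO, 12 of the 52 by at least 1 (10.2% of the Zfp genes and 10.8% of all measured genes). By level, 11 of the 59 genes with a mean above the members' median were higher and 18 lower, against 17 and 6 of the other 59. This split was not made for all measured genes. Among all measured genes 48.4% passed, 28.4% higher and 20.0% lower, against 23.7% higher and 20.3% lower of the Zfp genes, so the Zfp share lies near that of the measured genes. After quantile normalization the balance turned, with 25 higher and 31 lower. The balance of all measured genes after it is not given here, so the turn cannot be called particular to the Zfp genes. The median change was -0.01 over the Zfp genes and 0.03 over all measured genes, and the former was -0.07 without double-KO replicate 1 and 0.05 without its replicate 2. Of the marker lists, 5 of the 9 measured fibroblast markers were lower and none higher, 4 of 5 trophoblast markers were higher and none lower, 3 of 5 neural progenitor markers were lower, and 3 of 5 primitive endoderm markers were higher and 1 lower. Of the 12 ES cell markers 4 were higher and 1 lower, with the replicates apart as above. Their part in the Zfp changes was not tested.

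Zfp229 had the largest rise. It read 7.63 and 7.68 in WT, 7.77 and 7.98 in Jmjd1a-KO, 7.72 and 7.60 in Jmjd1b-KO, while the double-KO arrays read 10.27 and 9.97. Only the double-KO arrays were high and no other array came near them. The change was 2.47 ± 0.12 (limma, adjusted p = 0.000164).

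Zfp62 read 7.34 and 7.32 in WT, 7.41 and 7.76 in Jmjd1a-KO, 7.13 and 6.96 in Jmjd1b-KO, while the double-KO arrays read 9.66 and 9.07. Its pattern was again one of high double-KO arrays, and it rose by 2.03 ± 0.21 (limma, adjusted p = 0.00105). Its other measured probe set changed by 1.23. Zfp263, whose human counterpart carries KRAB and SCAN domains, read 7.60 and 7.76 in WT, 7.70 and 7.34 in Jmjd1a-KO, 7.07 and 7.10 in Jmjd1b-KO, while the double-KO arrays read 8.87 and 8.75. The double-KO arrays stood above the other 6, and it rose by 1.13 ± 0.13 (limma, adjusted p = 0.00143). Zfp105 read 8.34 and 8.54 in WT, 6.97 and 7.64 in Jmjd1a-KO, 7.71 and 7.82 in Jmjd1b-KO, while the double-KO arrays read 9.84 and 9.16. Both single knockouts lay below WT and double-KO above it. Its rise of 1.06 ± 0.29 against WT (limma, adjusted p = 0.0267) was kept in 3 of the 8 leave-one-out fits (adjusted p up to 0.121, without WT replicate 1). Its probe set and that of Zfp263 carry endings that mark probes able to match more than 1 transcript.

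Zfp934 and Zfp958 rose by 1.54 ± 0.23 and 1.33 ± 0.13, both also higher in Jmjd1a-KO than in WT. Zfp710 read 8.75 and 8.84 in WT, a mean of 8.99 in Jmjd1a-KO, 8.80 and 8.83 in Jmjd1b-KO, while the double-KO arrays read 9.68 and 9.76. Its replicates lay close together, and it rose by 0.92 ± 0.06 (limma, adjusted p = 0.000282). Zfp352, a gene known from the early cleavage embryo, read 6.29 and 6.50 in WT, 6.29 and 6.37 in Jmjd1a-KO, 6.45 and 6.35 in Jmjd1b-KO, while the double-KO arrays read 7.12 and 7.05. In the first 3 groups it lay at the level of the lower quartile, and it rose by 0.69 ± 0.09 (limma, adjusted p = 0.00212). Zfp36 rose by 0.68 ± 0.06, Zfp839 by 0.80 and Zfp367 by 0.77. Zfp622, a factor of large ribosomal subunit assembly, rose by 0.41 ± 0.05 (limma, adjusted p = 0.00172) with both double-KO arrays, at 11.91 and 11.92, above the other 6.

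Among the falls, Zfp532 had the largest. It read 10.41 and 10.16 in WT, 9.20 and 9.60 in Jmjd1a-KO, 10.10 and 10.10 in Jmjd1b-KO, while the double-KO arrays read 8.53 and 8.75. The levels descended from WT through Jmjd1a-KO to double-KO with Jmjd1b-KO next to WT, and the change was -1.64 ± 0.16 (limma, adjusted p = 0.000819). Zfp423 read 7.47 and 7.45 in double-KO and changed by -1.46 ± 0.16 (limma, adjusted p = 0.00132). Zfp518b read 10.49 and 10.53 in WT, 9.77 and 9.98 in Jmjd1a-KO, 10.35 and 10.12 in Jmjd1b-KO, while the double-KO arrays read 9.18 and 9.15. It followed the same order as Zfp532, with a change of -1.34 ± 0.10 (limma, adjusted p = 0.000452). Zfp809 read 8.50 and 8.53 in WT, 7.96 and 8.18 in Jmjd1a-KO, 8.44 and 8.62 in Jmjd1b-KO, while the double-KO arrays read 7.56 and 7.76. No double-KO array overlapped another group, and the change was -0.86 ± 0.11 (limma, adjusted p = 0.00221). Zfp961 changed by -1.34, Zfp280c by -1.25, Zfp740 by -1.15, Zfp334 by -0.90, Zfp991 by -0.79 and Zfp341, a regulator of Stat3, by -0.72.

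Of the 20 genes named for double-KO against WT, 19 kept their call whichever array was left out, all but Zfp105. The count of all Zfp genes was 28 without WT replicate 1 and 31 without WT replicate 2 (beside 29.7% and 29.5% of all measured genes), and 24 with flat genes in the fit (12.7% of all genes).

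**Figure D2:**
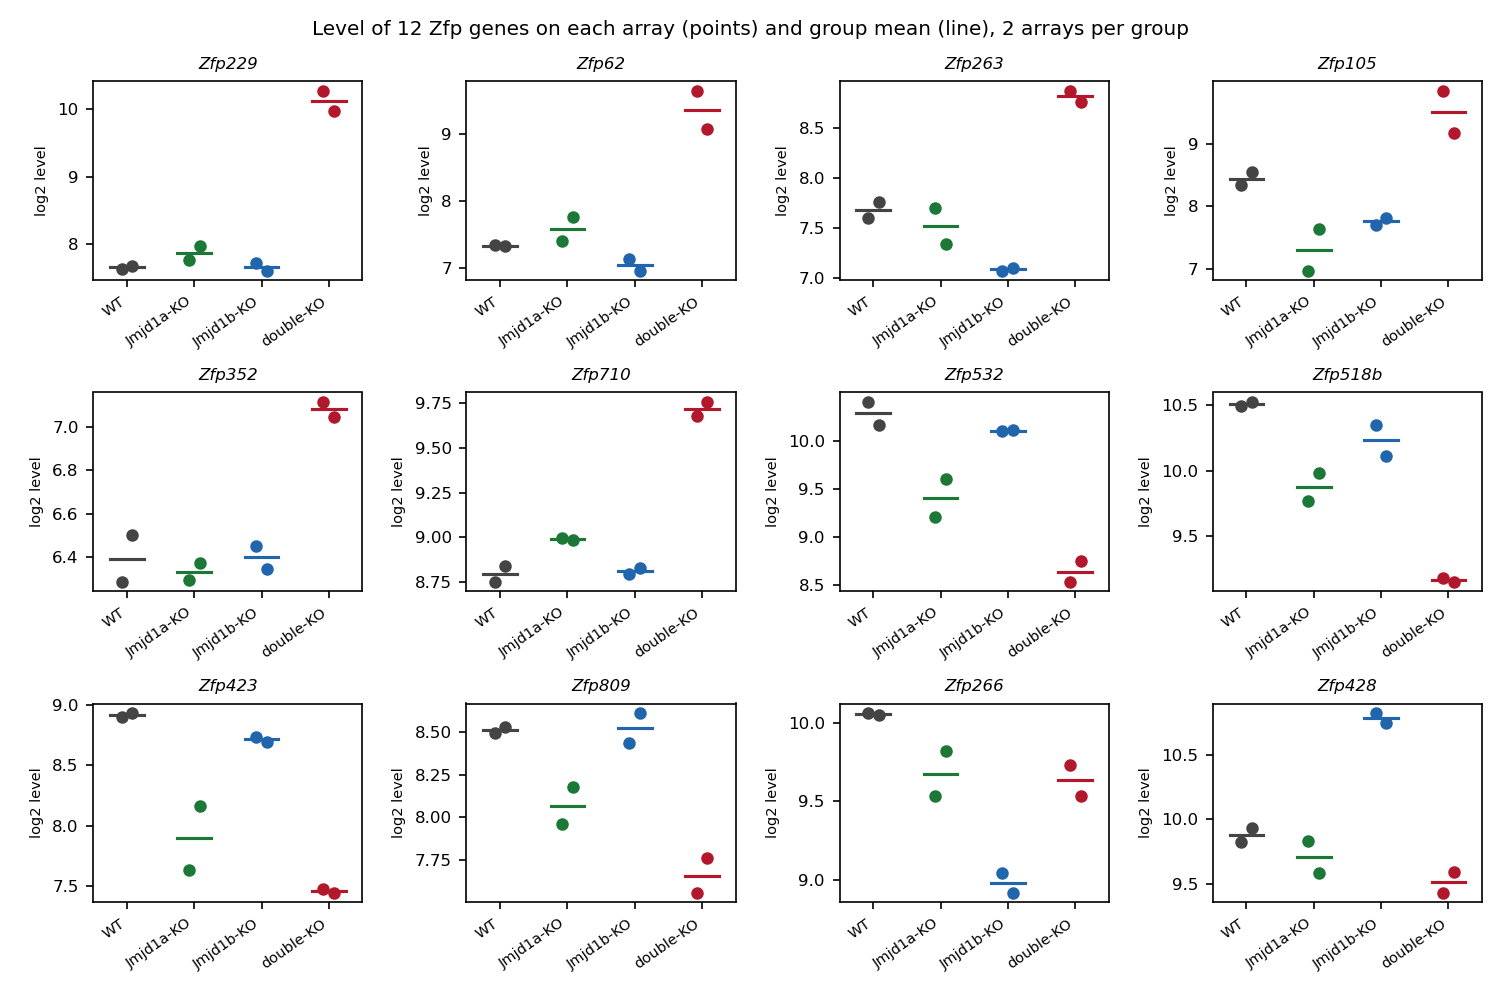
Log2 level of 12 Zfp genes on each of the 8 arrays (points, 2 per group) with the group mean as a line, each panel on its own axis that does not start at 0. Zfp229, Zfp62, Zfp263, Zfp352 and Zfp710 were high in double-KO, Zfp532, Zfp518b, Zfp423 and Zfp809 were lowest there, and Zfp266 and Zfp428 stood apart in Jmjd1b-KO.

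The comparison of double-KO with Jmjd1a-KO, for deletion of Jmjd1b in cells already without Jmjd1a, gave 21 higher and 11 lower Zfp genes. Differences between lines are included in it. Among all measured genes 30.0% passed, 18.1% higher and 11.9% lower, against 17.8% higher and 9.32% lower of the Zfp genes. The median change was 0.15 over the Zfp genes and 0.02 over all measured genes. The Zfp median fell to 0.03 without Jmjd1a-KO replicate 1, where 16 genes were higher and 13 lower, and to 0.08 without double-KO replicate 1. Zfp229 rose by 2.25 ± 0.12 (limma, adjusted p = 0.000474), Zfp105 by 2.20 ± 0.29, Zfp62 by 1.78 ± 0.21 and Zfp263 by 1.29 ± 0.13. Smaller rises included Zfp622 by 0.61, Zfp352 by 0.75, Zfp710 by 0.72, Zfp36 by 0.48, Zfp936 by 0.89, Zfp560 by 0.82, Zfp839 by 0.70 and Zfp35 by 0.70. Zfp532 changed by -0.76, Zfp341 by -0.72, Zfp518b by -0.71, Zfp991 by -0.70 and Zfp365 by -0.69. Zfp462, a G9a partner that guards ES cell identity, changed by -0.56 ± 0.13 (limma, adjusted p = 0.0249). Of the fibroblast markers 3 were higher and 3 lower here, and of the trophoblast markers 3 were higher. Of 20 genes named for this comparison 11 kept their call in all 8 leave-one-out fits. The count was 15 without double-KO replicate 1 (17.3% of all measured genes), 6, all higher, with only the arrays of these groups (5.58% of all measured genes), 19 with array weights (15.0%) and 7 with flat genes in the fit (4.48%).

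Double-KO against Jmjd1b-KO gave the largest count of the 5 comparisons of 2 groups. Of the 118 genes, 46 were higher and 13 lower. Among all measured genes 51.8% passed, 28.3% higher and 23.5% lower, against 39.0% higher and 11.0% lower of the Zfp genes. The median change was 0.14 over the Zfp genes and 0.02 over all measured genes. In the same comparison 6 of 9 fibroblast markers were higher and 1 lower, 4 of 5 primitive endoderm markers were higher and 1 lower, and 4 of 5 trophoblast markers were higher and 1 lower. Their part in the result was not tested.

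Zfp229 rose by 2.46 ± 0.12 (limma, adjusted p = 0.000137), Zfp62 by 2.32 ± 0.21, Zfp105 by 1.74 ± 0.29, Zfp263 by 1.72 ± 0.13 and Zfp934 by 1.58 ± 0.23. Zfp521 read 7.67 and 7.09 in double-KO and rose by 1.39 ± 0.18 (limma, adjusted p = 0.00196) from its low level in Jmjd1b-KO. Zfp871 rose by 1.00 and Zfp386 by 1.06, both genes that fell in Jmjd1b-KO against WT. These comparisons share the Jmjd1b-KO arrays, and neither gene passed in double-KO against WT, with changes of -0.03 and 0.11. Zfp445, which maintains imprinted methylation, read 10.07 and 9.73 in WT, 8.63 and 9.44 in Jmjd1a-KO, 9.02 and 8.97 in Jmjd1b-KO, while the double-KO arrays read 10.65 and 9.82. Its replicates lay far apart in Jmjd1a-KO and double-KO, and the rise of 1.24 ± 0.36 (limma, adjusted p = 0.0296) was kept in 3 of the 8 leave-one-out fits (adjusted p up to 0.123). Its other measured probe sets rose less, by 0.45 and 0.17. Among the falls were Zfp991 with -1.52, Zfp532 and Zfp740 with -1.46 each, Zfp428 with -1.28, Zfp423 with -1.26, Zfp518b with -1.07, Zfp341 with -0.97, Zfp961 with -0.89, Zfp809 with -0.87 and Zfp334 with -0.64. Of 20 genes named here 17 kept their call in all 8 leave-one-out fits. The count was 36 or 34 on omission of Jmjd1b-KO replicate 1 or 2 (32.3% and 30.6% of all measured genes), and 32 with flat genes in the fit (14.4% of all genes).

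The interaction asks whether the change in double-KO differs from the sum of the changes in the single knockouts. It was above 0 for 27 Zfp genes and below 0 for 4. Among all measured genes 26.4% passed, 14.1% above 0 and 12.2% below, against 22.9% above and 3.39% below of the Zfp genes. The median was 0.28 over the Zfp genes and 0.01 over all measured genes, and 88 of the 118 values were positive, beside 51.1% of the values of all measured genes. For 7 of the 9 measured fibroblast markers the interaction was also above 0 and for 1 below, with a median of 1.87 over the 9, and their part in the Zfp result was not tested.

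Zfp105 had the largest value, 2.88 ± 0.41 (limma, adjusted p = 0.00786), from levels below WT in both single knockouts and above WT in double-KO. Zfp229 followed with 2.25 ± 0.17 (limma, adjusted p = 0.00227), from single knockouts that changed by 0.21 and 0.00. Zfp62 had 2.07 ± 0.30 and Zfp263 1.88 ± 0.18 (limma, adjusted p = 0.00363). Zfp710 had 0.71 ± 0.08, Zfp352 0.75 ± 0.13 and Zfp622 0.49 ± 0.07. Other positive values came from genes that did not pass as higher in double-KO than in WT. Zfp386 had 1.73 ± 0.37, from changes against WT of -0.67 for Jmjd1a-KO, -0.95 for Jmjd1b-KO and 0.11 for double-KO, of which the Jmjd1b-KO value alone passed. Zfp764 had 0.77 ± 0.12, from changes of -0.46, -0.53 and -0.22, of which the last did not pass. Zfp266 had 1.03 ± 0.17, beside 0.30, 0.63 and 0.81 from its other probe sets, and was lower in double-KO than in WT (-0.42). Zfp445 had 2.11 ± 0.50 (limma, adjusted p = 0.0303), kept in 3 of the 8 leave-one-out fits, beside 0.82 and 0.42 from its other probe sets, and none of its changes against WT passed. The 4 values below 0 were those of Zfp991 (-1.43), Zfp428 (-1.10), Zfp341 (-0.97) and Zfp74 (-0.58). The other measured probe set of Zfp991 gave 0.81, of opposite sign, so no direction can be given for its interaction. The genes that fell most in double-KO did not pass for the interaction. Zfp532 had -0.58 ± 0.22 (limma, adjusted p = 0.103), Zfp423 -0.24 ± 0.23 (0.465), Zfp518b -0.43 ± 0.15 (0.0777) and Zfp961 0.07 ± 0.21 (0.849), and such a p does not show that their changes add up. The count of 31 became 11 or 12 when WT replicate 1 or 2 was left out (11.7% and 11.6% of all measured genes) and 11 or 9 for Jmjd1b-KO replicate 1 or 2 (10.1% and 8.76%). It became 17 on omission of double-KO replicate 1 (16.5%), 47 on omission of Jmjd1a-KO replicate 2 (35.7%), and 6 with flat genes in the fit (3.83% of all genes).

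**Figure D3:**
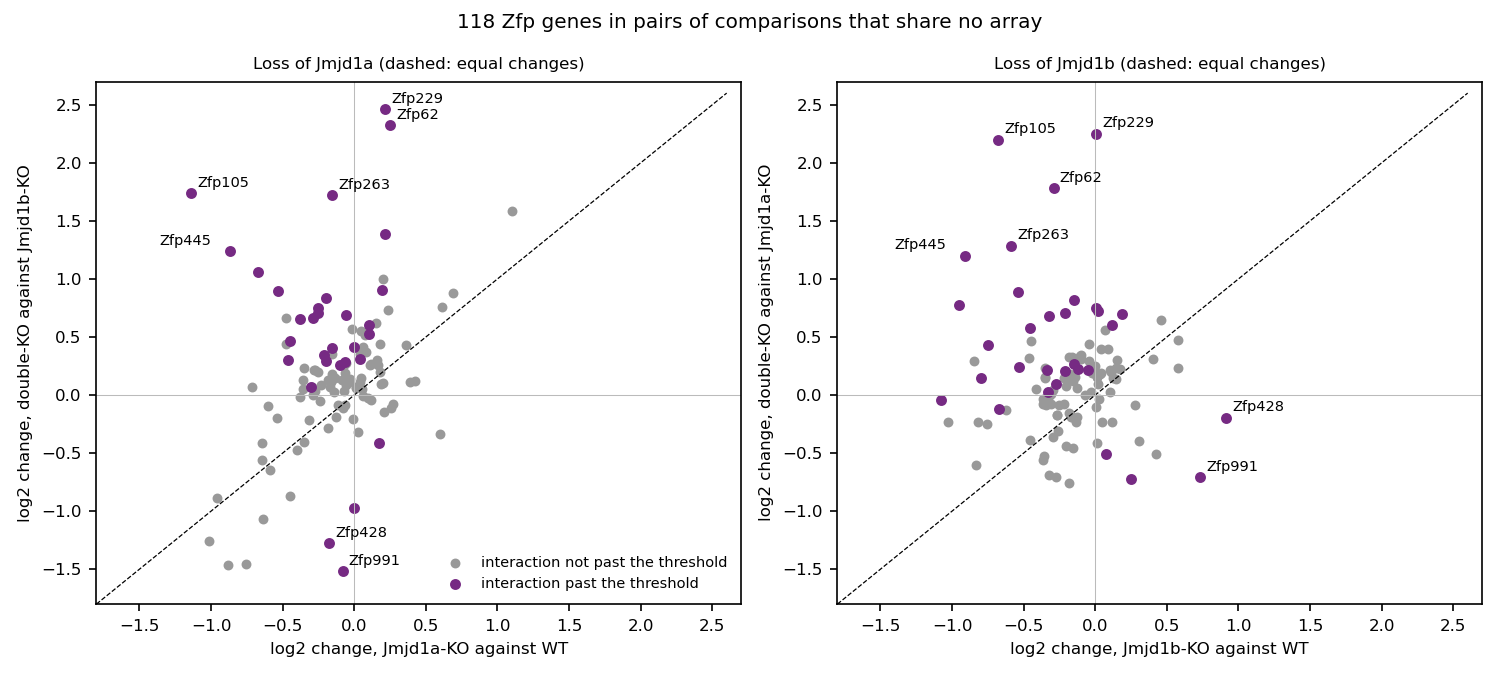
Log2 change of each of the 118 Zfp genes on loss of Jmjd1a (left: Jmjd1a-KO against WT on the x axis, double-KO against Jmjd1b-KO on the y axis) and on loss of Jmjd1b (right: Jmjd1b-KO against WT on x, double-KO against Jmjd1a-KO on y), with genes whose interaction passed in purple and equal changes on the dashed line. Zfp229, Zfp62, Zfp263 and Zfp105 lie high above the line in both panels, and Zfp428 and Zfp991 lie below it, the latter with another probe set whose interaction has the opposite sign. A gene's vertical distance from the line is its interaction in both panels, so the panels do not show it separately.

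The change that goes with the same loss can be compared in cells with and without the other enzyme over arrays that are not shared. The groups also differ in line, and by the series text in how Jmjd1b was deleted, so loss and line cannot be told apart. For loss of Jmjd1a, the changes of the 118 genes in Jmjd1a-KO against WT and in double-KO against Jmjd1b-KO had the same sign for 61 genes (51.7%), with Pearson's r of 0.32 and Spearman's rho of 0.26 across genes. Over all 7181 measured genes the same-sign share was 63.3%, r 0.43 and rho 0.36. For loss of Jmjd1b, the signs matched for 59 Zfp genes, with r of -0.09 and rho of 0.06, beside 50.6% of all measured genes, with 0.03 and 0.00. Genes are not independent replicates, and these values describe the arrays only.

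Across groups, double-KO had the highest mean for 53 Zfp genes (44.9%) and WT for 43 (36.4%), while each single knockout had the highest mean for 11 (9.32%). Over all measured genes the shares were 37.3% for double-KO, 20.8% for WT, 13.9% for Jmjd1a-KO and 28.0% for Jmjd1b-KO. The lowest mean lay in Jmjd1b-KO for 45 Zfp genes (38.1%), beside 25.7% of all measured genes.

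**Figure D4:**
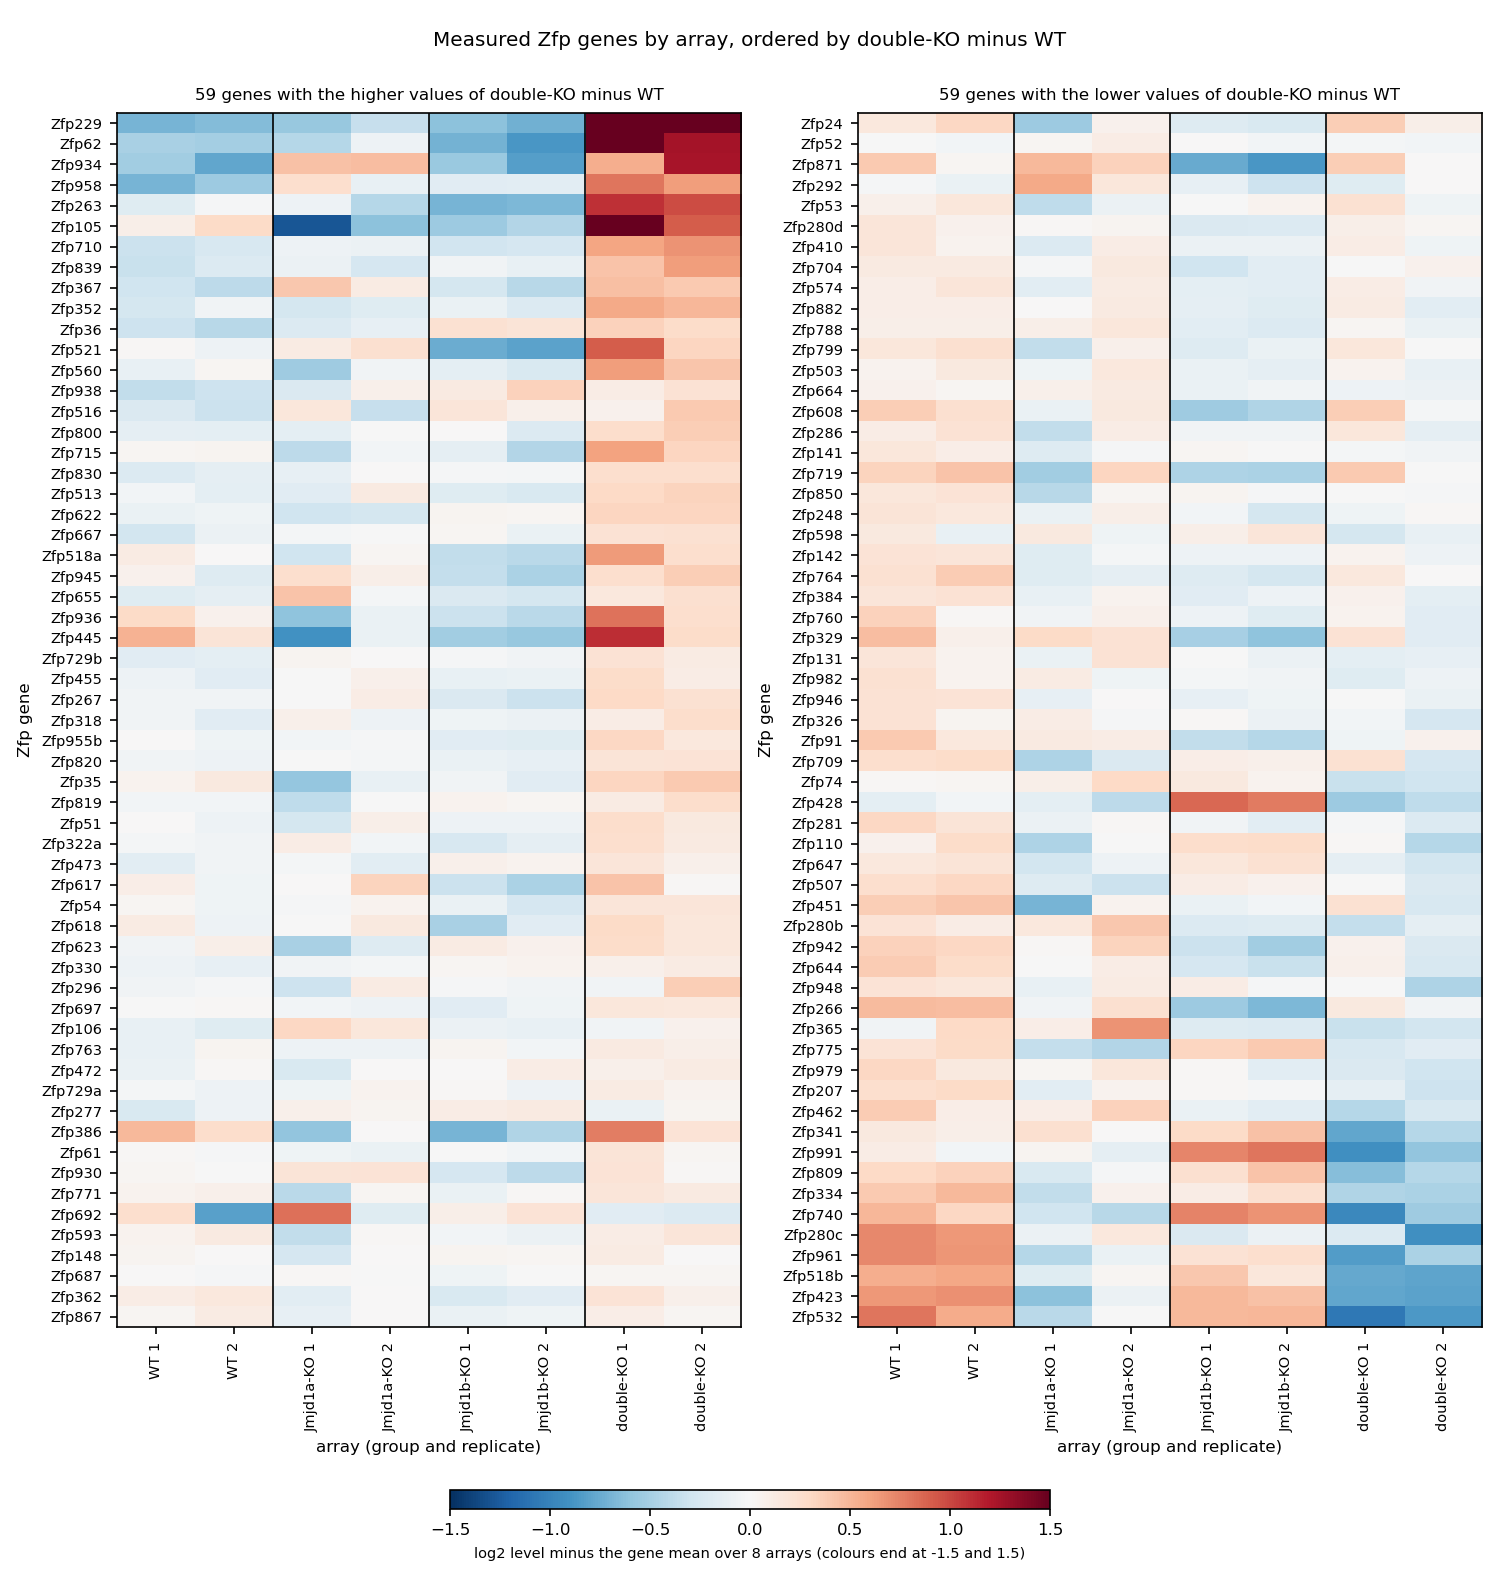
Log2 level of each of the 118 Zfp genes on each array minus that gene's mean over the 8 arrays, with genes ordered by double-KO minus WT, groups separated by black lines and colours ending at -1.5 and 1.5. Genes at the top left are high on both double-KO arrays, genes at the bottom right are low there and high on both WT arrays, and Jmjd1a-KO replicate 1 is lower than replicate 2 for many genes (median deviation -0.09 against 0.01).

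Zfp genes with a known role in ES cells or repression were followed in every comparison: of 27 listed, 24 were on the array and 17 measured. Zfp57, the imprint guardian best known in ES cells, had flat probe sets only. Zfp281, which drives exit from naive pluripotency, read 10.47 and 10.35 in WT, 10.07 and 10.17 in Jmjd1a-KO, 10.10 and 10.00 in Jmjd1b-KO, while the double-KO arrays read 10.14 and 9.95. All 6 knockout arrays were below both WT arrays, and it passed in Jmjd1b-KO (-0.37 ± 0.09, limma adjusted p = 0.0373) and double-KO (-0.37 ± 0.09, 0.0189) against WT, not in Jmjd1a-KO (-0.29 ± 0.09, 0.0757). The G9a partners differed in pattern. Zfp644 passed as lower in Jmjd1b-KO and double-KO against WT (-0.63 and -0.41), and Zfp462 in double-KO against WT and against Jmjd1a-KO (-0.57 and -0.56). Zfp207, a spindle checkpoint factor, was lower in double-KO than in WT (-0.49 ± 0.09, limma adjusted p = 0.00813), but its other probe sets changed by -0.00 and -0.09. Zfp318 was higher in double-KO than in WT (0.29), and Zfp322a, a pluripotency factor, was higher in double-KO than in Jmjd1b-KO (0.37). The other measured probe set of Zfp322a changed by only 0.05 in that comparison. Zfp110, Zfp292, Zfp296 and Zfp819 passed in no comparison. Zfp296, a reprogramming factor, read 9.68 and 9.72 in WT and 9.68 and 10.10 in double-KO, and the groups overlap.

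Zfp genes that lie next to each other in RefSeq's gene order changed alike in some runs and not in others. Another Zfp gene was next in order for 49 of the 118, of which 31 fell into 11 runs holding at least 2 measured genes. Zfp229 shares a run with Zfp760, Zfp820 and Zfp942. Against its change of 2.47 in double-KO against WT, Zfp820 changed by 0.26 ± 0.05 (limma, adjusted p = 0.00756), Zfp760 by -0.24 and Zfp942 by -0.40, and the last 2 did not pass. Zfp51, Zfp52, Zfp53, Zfp54 and Zfp948 form another run, in which Zfp54 alone passed in any comparison, at 0.36 in double-KO against Jmjd1b-KO. In double-KO against WT, Zfp979, Zfp982 and Zfp991 had changes of -0.49, -0.27 and -0.79, of which the second did not pass. Zfp455, Zfp729a and Zfp729b had 0.31, 0.14 and 0.32, and again the second did not pass. The other measured probe set of Zfp729a changed by 0.47, and Zfp455 lay below the lower quartile in every group. The probe sets of Zfp729b and Zfp982 carry endings that mark probes able to match more than 1 transcript. Zfp266 and Zfp560 passed in opposite directions, at -0.42 and 0.56. Over the 49 genes, 8 interactions were above 0 and 2 below with a median of 0.31, and over the other 69 genes, 19 and 2 with a median of 0.26. By promoter CG content, the 47 genes with more than the members' median of 17 CG had 10 interactions above 0 and 2 below, and the 50 with 17 or fewer had 13 and 1. By mean level, the 59 genes above the members' median had 11 interactions above 0 and 3 below, and the other 59 had 16 and 1. By probe set ending, the 14 with _s_at or _x_at had 6 above 0 and 0 below (median 0.47). The 96 with _at had 21 and 4 (median 0.25).

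Transcripts of corepressor and H3K9 methylation genes, only some of whose proteins act with KRAB zinc fingers, were looked at for context. Of 27 such genes, 25 were on the array and 15 measured, and Setdb1 was not among the 15. In Jmjd1a-KO against WT 3 were lower and none higher, among them Trim28 by -0.34 ± 0.06 (limma, adjusted p = 0.0190). In Jmjd1b-KO against WT 1 was higher and 2 lower: Ehmt2 (G9a) rose by 1.08 ± 0.19 and Cbx5 (HP1 alpha) fell by 1.18 ± 0.11. In double-KO against WT 1 was higher and 3 lower, Ehmt2 among the latter at -0.67 ± 0.19 (limma, adjusted p = 0.0288). Among all measured genes, in the same order of comparisons, 7.92%, 10.2% and 20.0% were lower and 10.2%, 13.6% and 28.4% higher. The list's median change lay between -0.12 and 0.08 in the 6 comparisons. The related zinc finger families Zbtb, Zscan and Zkscan had 28 of 59 genes measured (47.5%). Their median interaction was 0.21, with 9 of the 28 above 0 and 4 below. The 118 Zfp genes had a median of 0.28, with 22.9% above and 3.39% below. All measured genes had a median of 0.01, with 14.1% above and 12.2% below. The lean above 0 was thus not particular to the Zfp genes. In Jmjd1b-KO against WT the 28 genes had a median of -0.16, with 3 higher and 6 lower. Among all measured genes 13.6% were higher and 10.2% lower there.

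In all, 79 of the 118 Zfp genes (66.9%) passed in at least 1 of the 6 comparisons and 39 in none, beside 70.5% of all measured genes that passed in at least 1. Among the 39 were Zfp451, a SUMO ligase, Zfp598, a ligase that marks collided ribosomes, Zfp593, a ribosome assembly factor, and Zfp410, an activator of Chd4. Zfp692 was also among them, with replicates that lay far apart (8.75 and 7.68 in WT, 9.32 and 8.31 in Jmjd1a-KO), so its standard error was 0.43. Zfp687, the partner of Zfp532 in the Zmynd8 complex, read between 8.09 and 8.18 on the 8 arrays and changed by 0.04 ± 0.05 in double-KO against WT. Of the 25 genes with more than 1 measured probe set, those called in the 5 comparisons of 2 groups gave 54 values from other probe sets. Of these, 53 had the sign of the called change, Zfp991 in Jmjd1b-KO against WT being the exception. A gene can give several of the values, from comparisons that share arrays, and some lay near 0, such as -0.00 for Zfp207 in double-KO against WT. For the interaction, 10 of 11 values from 8 genes had the sign of the called value, and the exception was again Zfp991.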

How the data were processed

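The authors deposited a series table of log2 levels for 45101 probe sets on 8 arrays. The unit was read from the values. R 2.7.2 appears in the submitters' processing notes. For background correction, normalization and summarization, the method was not given in the sources used here. Precision is limited by the number of arrays, and raw scans were not analysed here. Columns were joined to samples by their labels (0 columns left unused).

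Probe sets were named through the platform's table: 34958 had 1 gene symbol, and the 932 with several and 9211 with none were left out. Each gene took its measured probe set (span of at least 0.01) with the highest mean. For 8 of the 118 Zfp genes the overall highest probe set was flat, and all 118 symbols were the same in the RefSeq table. The Zfp genes, lists, fit and naming rule were chosen with earlier results of these data known. Split by KRAB domain or finger number was not made, since protein sequences were not used here.

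The 7181 measured genes were fitted with 4 group means in limma 3.58.1 under R 4.3.3 (lmFit, contrasts.fit, eBayes with 4 residual and 1.91 prior degrees of freedom, prior variance 0.00676), with Benjamini-Hochberg adjustment over these genes at 0.05. The p-values measure the spread between labelled biological replicates, whose origin from separate cultures or lines is not given. Genes named per comparison were up to 10 each way, by size, among called genes whose arrays did not overlap (5 each way and called for the interaction), and called genes of the list with a known role. Other genes named, such as Zfp622, Zfp764, Zfp687 and Zfp692, were chosen after their values were seen. Deviations of same-numbered replicates correlated between -0.12 and 0.22, so replicates were not treated as pairs. On simulated data of 7181 genes for double-KO against WT the fit recovered 47.5, 82.4 and 96.5% of log2 changes of 0.5, 1 and 2, with 4.50% false calls. In it each gene had the same SD in all groups, and 200 genes were changed. The data have unequal replicate spread and 48.4% of measured genes called in this comparison, so these rates need not hold there.

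The alternatives were the whole array with flat genes, quantile normalization, centring, a filter on low means, robust eBayes with trend, only the groups compared, array weights, the mean of measured probe sets, a replicate block and omission of each array. Tables and figures used Python 3.11.15, pandas 2.3.3 and matplotlib 3.10.9.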

Additional observations from a re-analysis of the deposited data

Results flagged for a closer look

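The interaction term tests whether the effect of losing an enzyme differs between cells with and without the other enzyme. It passed in limma (adjusted p under 0.05 over all measured genes) for 31 of the 118 Zfp genes, beside 26.4% of all measured genes. The values furthest above 0 were those of Zfp105 (2.88), Zfp229 (2.25), Zfp445 (2.11), Zfp62 (2.07) and Zfp263 (1.88), and the role genes Zfp521 (1.17) and Zfp352 (0.75) passed too. All values below 0 that passed were those of Zfp991 (-1.43), Zfp428 (-1.10), Zfp341 (-0.97) and Zfp74 (-0.58). The other measured probe set of Zfp991 gave an interaction of 0.81, so that gene's direction is not settled. Zfp229 changed by 0.21 in Jmjd1a-KO and 0.00 in Jmjd1b-KO against WT, and Zfp105 by -1.14 and -0.68, of which the second did not pass.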

How the results depend on the processing

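Counts of Zfp genes past the threshold moved most with the arrays and genes in the fit. In the order Jmjd1a-KO, Jmjd1b-KO and double-KO against WT, double-KO against Jmjd1a-KO and against Jmjd1b-KO, and interaction, the counts were 19, 24, 52, 32, 59 and 31. With flat genes in the fit they were 2, 2, 24, 7, 32 and 6, where the prior variance falls to 1.68e-19 and 110 of the 118 genes can be compared. Leaving out 1 array at a time gave 1 to 42, 0 to 37, 28 to 64, 15 to 42, 34 to 66 and 9 to 47 (the 0, in limma without Jmjd1b-KO replicate 2, had 26 at an unadjusted p under 0.05). In each comparison, the largest of these leave-one-out counts came with the largest share of all measured genes past the threshold. The swings were thus not particular to the Zfp genes. With only the groups compared, the count of Zfp genes was 3 for Jmjd1a-KO against WT, 56 for Jmjd1b-KO against WT and 6 for double-KO against Jmjd1a-KO. Array weights gave 61 for Jmjd1b-KO against WT and 19 for double-KO against Jmjd1a-KO. With the replicate number as a block, the counts were 13, 19, 47, 28, 56 and 28, and the shares of all measured genes in that fit are not given here. A gene in a comparison where the rule names it is 1 of 97 results. Of those that could be fitted, 50 of 92 lost the call with flat genes in the fit, 26 of 88 with only the groups compared, 6 of 97 with array weights and 6 with the block. Quantile normalization, centring, the filter on low means and the robust fit with trend changed the call of none of the 97. With the mean of measured probe sets 1 lost its call, and Zfp991 in Jmjd1b-KO against WT turned to -0.12 (limma, adjusted p = 0.286). The causes were not tested. With 2 arrays per group and unequal replicate spread, calls in the single knockouts changed with the groups that share the error. Signal over background was not analysed here, so levels near the lower quartile are uncertain.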
